A study of Mus musculus with 10 samples.

Results

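Adhesion G-protein-coupled receptors are membrane proteins that join a long extracellular domain to a 7-helix receptor, and 5 of them were followed across the endothelial cells (ECs) of mouse long bone. The 5 genes were Gpr126 (Adgrg6), Eltd1 (Adgrl4), Gpr116 (Adgrf5), Cd97 (Adgre5) and Lphn2 (Adgrl2), chosen by name from 22828 genes kept in the count tables. Their unique molecular identifier (UMI) counts were taken from 10 single-cell libraries, in cells with 500 to 6000 genes and under 25% mitochondrial UMIs.

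In this receptor family the extracellular part binds matrix or a protein on a neighbouring cell, and most members cut themselves next to the membrane so that a tethered peptide can start G-protein signalling once the outer part is moved. Gpr126 is known for the myelination of peripheral nerves and binds type IV collagen, Eltd1 and Gpr116 are receptors of vascular endothelium, Cd97 binds CD55 and is abundant on leukocytes, and Lphn2 is a latrophilin that binds teneurins and FLRT proteins. Bone vessels hold sinusoidal marrow ECs, capillaries of the metaphysis next to the growth plate, arterial ECs, and capillaries that lie along remodelling trabecular bone.

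All animals were C57BL/6 mice that carried Cdh5-mTnG, a reporter in which the promoter of the endothelial cadherin gene Cdh5 drives a nuclear GFP and a membrane tdTomato, and lineage-depleted femur and tibia cells were sorted as GFP+ tdTomato+. The juvenile libraries came from 3-week-old males and females, and the adult (12-week), aged (75-week), PTH and alendronate libraries (both 12-week) came from females, with 2 libraries a group. PTH is a bone anabolic hormone fragment, and alendronate is a bisphosphonate that blocks bone resorption by osteoclasts. The adult libraries were the controls of all 4 contrasts, so those contrasts are not independent of each other. The juvenile contrast changes sex as well as age, animals were pooled within a group, and the sequencing was done once, so the spread between libraries is not a spread between mice. The study's methods name PBS injections as the control for both drugs but do not tie them to the adult libraries.

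The tables held 46283 cells after filtering, with 10653583 to 28419323 UMIs a library and medians of 3075 to 5149 UMIs a cell. The aged libraries stood apart: they had the highest median depths (5149 and 5056 UMIs) and a median mitochondrial share of 2.31% and 2.42%, against 1.15% to 1.43% in the other libraries. Libraries shared at most 1.47% of the barcodes of the smaller one. Pairs with an aged library shared 0.114% to 0.157%, and all other pairs at least 0.456%. Integrated clustering, with the adhesion receptors held out of the features, gave 43746 ECs in 5 classes named from marker genes: 14293 bmEC-like (sinusoidal marrow), 10721 mpEC-like (metaphyseal), 7263 aEC-like (arterial), 4964 rEC-like (remodelling) and 626 pEC-like (proliferating) cells. The other 5879 ECs were left unnamed, mostly in clusters led by Hba-a2 (2756 cells), Gm10800 (1857 cells) and Ptx3 (1215 cells). Cdh5 averaged 1060 to 1390 CPM (UMI counts scaled to a common total) in the classes, and the leukocyte gene Ptprc was at or below 1.76 CPM in every class and library. The cells had been sorted on a Cdh5 reporter and clusters with Ptprc above 20 CPM had been taken out. These values therefore follow from the selection and do not check the tissue.

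Gpr126 lies on chromosome 10 (14402583-14545659, minus strand), Eltd1 on chromosome 3 (151437887-151545086, plus strand), Gpr116 on chromosome 17 (43360451-43459557, plus strand), Cd97 on chromosome 8 (83723251-83741326, minus strand) and Lphn2 on chromosome 3 (148815583-148990555, minus strand) in GRCm38 with GENCODE vM21. Exons of Cd97 overlap Ddx39 on the opposite strand, and the strand setting of the counting is not given in the sources used here, so Cd97 counts are uncertain to that extent. Exons of Gpr126 (Gm46212) and Lphn2 (Gm43573) also overlap a gene on the opposite strand, and those of Cd97 overlap Mir1668 on the same strand, with the same limit. Ddx39 itself was at 38.8 ± 7.14 CPM (SD, n = 10 libraries) in bmEC-like, 66.8 CPM in mpEC-like, 61.9 CPM in aEC-like, 59 CPM in rEC-like and 167 CPM in pEC-like cells. Like Cd97 it was lowest in bmEC-like cells, while its highest class was another, and its part in the Cd97 counts was not tested.

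The stretches upstream of Eltd1 and Gpr116 are shown as examples of receptors that rose in aged cells of several classes, as described below. Their windows hold GGAAG, a longer form of the ETS core, a motif of factors that act in endothelial gene control. Other forms of the core were not searched or counted. Lphn2 was higher in aged cells too and its window held GGAAG or its reverse complement, so Eltd1 and Gpr116 are not the only such receptors. Each is the 250 bases before an annotated start (RefSeq, GRCm38.p6), written from 5′ to 3′ on the strand of the gene, with GGAAG or its reverse complement CTTCC in capitals. Eltd1 has 1 listed start (chr3:151437632-151437881, plus strand), and Gpr116 has an upstream start (chr17:43360181-43360430, plus strand) and an internal start (chr17:43389216-43389465, plus strand).
Eltd1: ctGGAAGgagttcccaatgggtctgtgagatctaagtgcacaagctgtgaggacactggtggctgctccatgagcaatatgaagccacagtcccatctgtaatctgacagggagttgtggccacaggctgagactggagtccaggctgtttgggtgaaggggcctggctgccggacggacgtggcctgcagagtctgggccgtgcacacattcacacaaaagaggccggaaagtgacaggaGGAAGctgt
Gpr116 upstream: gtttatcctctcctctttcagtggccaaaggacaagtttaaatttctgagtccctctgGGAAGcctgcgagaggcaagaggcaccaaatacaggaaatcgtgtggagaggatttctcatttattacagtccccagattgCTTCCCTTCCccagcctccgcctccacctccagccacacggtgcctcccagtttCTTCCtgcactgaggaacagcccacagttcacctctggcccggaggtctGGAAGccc
Gpr116 internal: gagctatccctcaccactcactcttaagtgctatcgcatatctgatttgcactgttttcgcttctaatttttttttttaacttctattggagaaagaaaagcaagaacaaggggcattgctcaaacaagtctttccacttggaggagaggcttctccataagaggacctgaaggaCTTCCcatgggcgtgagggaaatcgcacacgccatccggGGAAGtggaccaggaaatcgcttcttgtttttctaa
The Eltd1 window held 2 matches to GGAAG or CTTCC, the upstream Gpr116 window 5 and the internal Gpr116 window 2. Of all 32851 RefSeq mouse windows of that length, 64.1% held at least 1 such match, so its presence does not set these receptors apart. The GC content of the Gpr126 window was 69.6%, at the 90.2 percentile of all windows, and it held no GGAAG or CTTCC. That of Lphn2 was 37.6%, at the 7.92 percentile, with 1 match. Shorter or other forms of the ETS core, which these windows can hold, are not in these counts. A SOX motif (ACAANG, in 36.3% of windows on either strand) was found 2 times at Lphn2 and 1 time at the internal start of Gpr116, and a GATA motif (AGATAA, in 9.99% of windows, either strand) in none of these windows.

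Gpr126 was the receptor of the sinusoidal class. Its level in bmEC-like cells was 368 ± 153 CPM (SD, n = 10 libraries), ranging from 279 to 696 CPM, and this class was the highest in all 10 libraries. In pEC-like cells it was 36.0 ± 16.9 CPM (8 libraries), in mpEC-like cells 32.8 ± 8.15 CPM and in rEC-like cells 24.7 ± 5.05 CPM. It was lowest in 9 of 10 libraries in aEC-like cells, at 12.4 ± 5.03 CPM (range 3.68 to 17.9 CPM). The bmEC-like and the other ranges did not overlap, while the mpEC-like, pEC-like and rEC-like ranges overlapped. These CPM are UMIs summed over the cells of a class in a library and scaled by their total and the TMM factors of the fit over classes. Because Gpr126 had already been used as a marker of the marrow class in these libraries, its order is a description and carries no test. The other sinusoidal marker Stab2, a scavenger receptor, was at 1849 ± 441 CPM (SD, n = 10, plain totals) in bmEC-like and 369 CPM in mpEC-like cells.

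**Figure D1:**
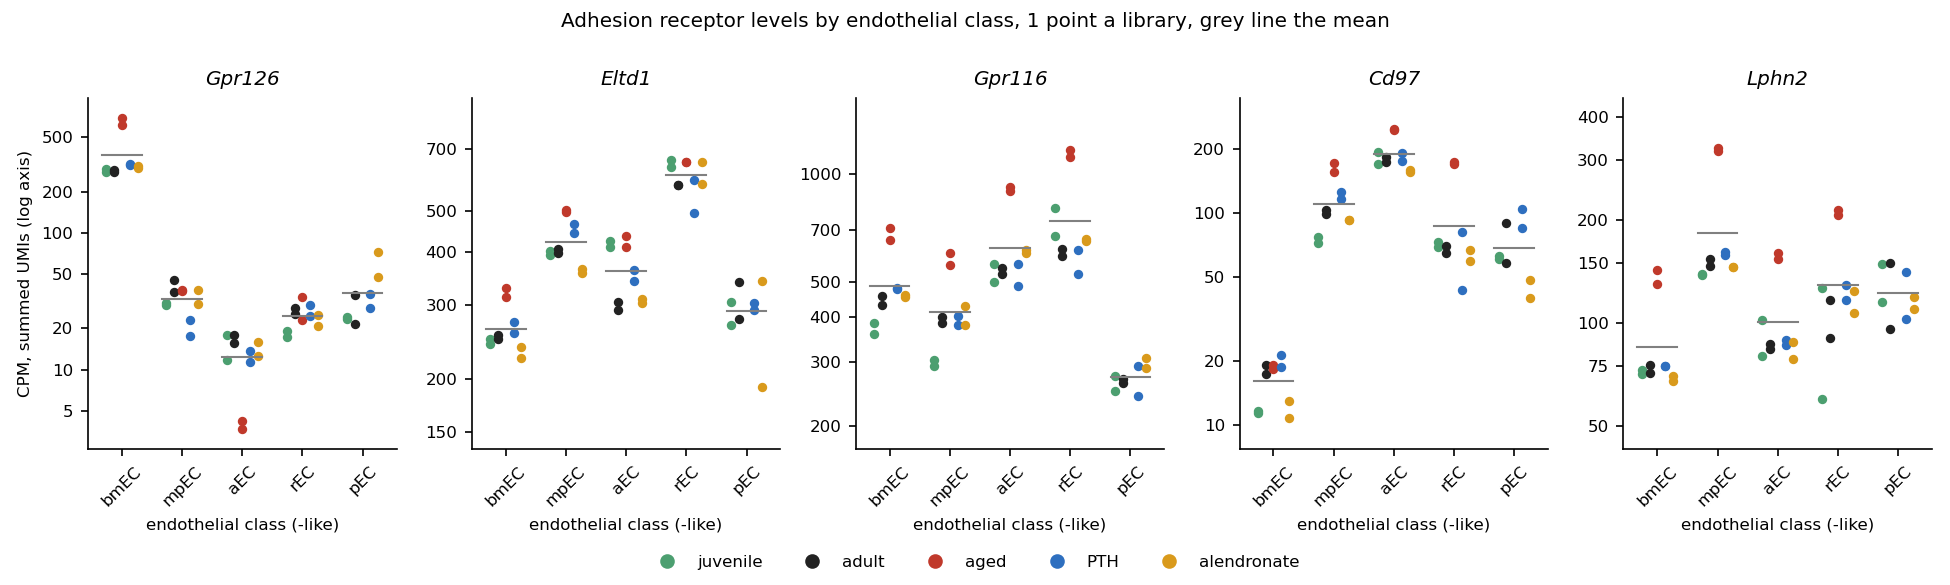
Level of each receptor in CPM (log axis) by endothelial class, with 1 point per library coloured by group and a bar at the mean. Gpr126 is highest in bmEC-like cells (368 CPM on average) and Cd97 lowest there (16.1 CPM), and the aged points lie highest for Gpr126 in bmEC-like cells.

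Cd97 had its ends the other way round. It was highest in all 10 libraries in aEC-like cells, at 189 ± 32.5 CPM (SD, n = 10; range 156 to 249 CPM), and lowest in all 10 in bmEC-like cells, at 16.1 ± 3.93 CPM (range 10.8 to 21.3 CPM). Against the mean of the other classes, Cd97 was lower in bmEC-like cells by a log2 fold change of -2.74 (SE 0.10, adjusted p = 4.13e-28, edgeR quasi-likelihood test with Benjamini-Hochberg adjustment) and higher in aEC-like cells by 1.69 (SE 0.08, adjusted p = 2.35e-24). Between these ends lay mpEC-like cells at 110.3 ± 32.4 CPM, rEC-like cells at 86.8 ± 45.7 CPM and pEC-like cells at 68.4 ± 22.3 CPM, of which rEC-like and pEC-like cells did not differ by the test (log2 difference 0.12, SE 0.16, adjusted p = 0.597). The pEC-like mean lacks the aged libraries, and rEC-like cells were higher in 5 of the 8 libraries with both classes. Of 20 tests of a receptor other than Gpr126 in a class, these 2 passed an adjusted p of 0.05 and a log2 fold change of 1. Of the 12465 genes tested, 16.5% passed in bmEC-like cells (8.79% lower), 13.5% in aEC-like cells (6.21% higher), 5.94% in mpEC-like, 14.3% in rEC-like and 11.2% in pEC-like cells. The 12 haematopoietic markers summed to more in aEC-like than in bmEC-like cells of juvenile (559 to 575 CPM against 503 to 511 CPM) and aged libraries (859 to 881 CPM against 715 to 789 CPM). They summed to less in adult (855 to 901 CPM against 949 to 954 CPM) and alendronate libraries (899.5 to 900.5 CPM against 1078 to 1115 CPM), and the ranges overlapped under PTH (887 to 952 CPM and 909.9 to 929.8 CPM). In juvenile rEC-like cells 7 of the 12 markers, Ptprc among them, had no UMI, and the sum was still 470 to 523 CPM. The sum can thus rest on few of the markers and is not read as an amount of leukocyte RNA. The part of these markers in the Cd97 difference was not tested.

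Eltd1 was highest in rEC-like cells, at 607 ± 53.4 CPM (SD, n = 10; range 495 to 661 CPM), in all 10 libraries. It was lower in mpEC-like (423 ± 51.8 CPM), aEC-like (359.6 ± 56.9 CPM), pEC-like (289.9 ± 47.4 CPM) and bmEC-like cells (263 ± 33.0 CPM), the lowest class in 9 of 10 libraries. The rEC-like class joined a Timp4-led cluster (3078 cells) and a Tagln-led cluster (1886 cells), the latter with 3 of the 7 rEC markers raised. At resolution 0.3 and without integration a Tagln-led cluster scored highest for lymphatic markers and stayed unnamed. On plain totals Eltd1 averaged 684 ± 124 CPM in Timp4-led and 523 ± 44.5 CPM in Tagln-led cells, beside 545 ± 114 CPM in the Pgf-led mpEC-like cluster. Between single classes, Eltd1 differed by more than a log2 fold change of 1 for bmEC-like against rEC-like cells (-1.21, SE 0.06, adjusted p = 2.71e-22), and for rEC-like against pEC-like cells (1.02, SE 0.08, adjusted p = 8.52e-16). The neighbours bmEC-like and pEC-like differed by -0.19 (SE 0.08, adjusted p = 0.0317), with bmEC-like cells higher in 1 of 8 libraries. For the first 2 pairs, 20.8% and 20.8% of all genes passed. For the other pairs the background was 11.4% (bmEC-like with mpEC-like), 20.3% (bmEC-like with aEC-like), 19% (bmEC-like with pEC-like), 12.4% (mpEC-like with aEC-like), 14.9% (mpEC-like with rEC-like), 7.93% (mpEC-like with pEC-like), 10.3% (aEC-like with rEC-like) and 19.8% (aEC-like with pEC-like).

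Gpr116 was also highest in rEC-like cells in all 10 libraries, at 742 ± 220 CPM (SD, n = 10; range 529 to 1161 CPM). It was at 622 ± 155 CPM in aEC-like, 488 ± 110 CPM in bmEC-like and 414 ± 98.1 CPM in mpEC-like cells, and at 274 ± 22.5 CPM in pEC-like cells, the lowest class in 8 of 8 libraries. The rEC-like clusters differed on plain totals, with Gpr116 at 909 ± 312 CPM in Timp4-led and 569 ± 121 CPM in Tagln-led cells. In the Serpinf1-led aEC-like cluster Gpr116 was at 679 ± 164 CPM. The proliferating class was lower than aEC-like cells (log2 difference aEC-like minus pEC-like 1.01, SE 0.07, adjusted p = 3.90e-16) and lower than rEC-like cells (1.24, SE 0.08, adjusted p = 5.95e-19). All other class pairs differed by less than a log2 fold change of 1, although each passed the adjusted p.

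Lphn2 was the receptor with its highest level in metaphyseal cells, at 183 ± 73.1 CPM in mpEC-like cells (SD, n = 10), which were highest in 9 of 10 libraries. In rEC-like cells it was at 129 ± 47.3 CPM, in pEC-like cells 123 ± 20.96 CPM, in aEC-like cells 100.9 ± 30.3 CPM and in bmEC-like cells 85.2 ± 27.2 CPM. The pair of bmEC-like and mpEC-like cells passed both thresholds (-1.08, SE 0.06, adjusted p = 4.77e-21). The rEC-like and pEC-like levels did not differ by the test (log2 difference -0.15, SE 0.09, adjusted p = 0.186). The pEC-like mean lacks the aged libraries, and rEC-like cells were higher in 4 of the 8 libraries with both classes.

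The share of cells with at least 1 UMI was compared after thinning each cell to 1000 UMIs, since depth differed between classes (medians from 2508 UMIs in rEC-like to 5482 UMIs in pEC-like cells). Gpr126 was found in 27.1 ± 9.54% of bmEC-like cells (SD, n = 10 libraries) but in 1.16% of aEC-like cells. Unthinned and pooled over the cells of all libraries, the shares were 58.3% and 3.69%. Haematopoietic cells of the same libraries, which should lack it, gave 1.07% (1436 cells, median 5475 UMIs) and erythroid cells 2.65% (529 cells, median 6710 UMIs). The aEC-like share was therefore at background, and differences of Gpr126 between groups within that class are not read as expression. The rEC-like share of 2.12% lay under the erythroid one, but its level of 24.7 CPM lay above that of erythroid cells (14.2 CPM, 95% counting interval 11.3 to 17.5 CPM) and of haematopoietic cells (9.003 CPM, 7.44 to 10.8 CPM). The rEC-like cells were shallower (median 2508 UMIs), and the CPM of background RNA can depend on depth. The comparison therefore cannot decide whether the rEC-like level is background. The rEC-like clusters differed on plain totals, as the Timp4-led cluster with 3078 of the 4964 cells pooled to 13.03 CPM, inside the erythroid interval, and the Tagln-led cluster to 36.4 CPM. The mpEC-like (2.99%) and pEC-like (3.78%) shares were just above the erythroid share.

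**Figure D2:**
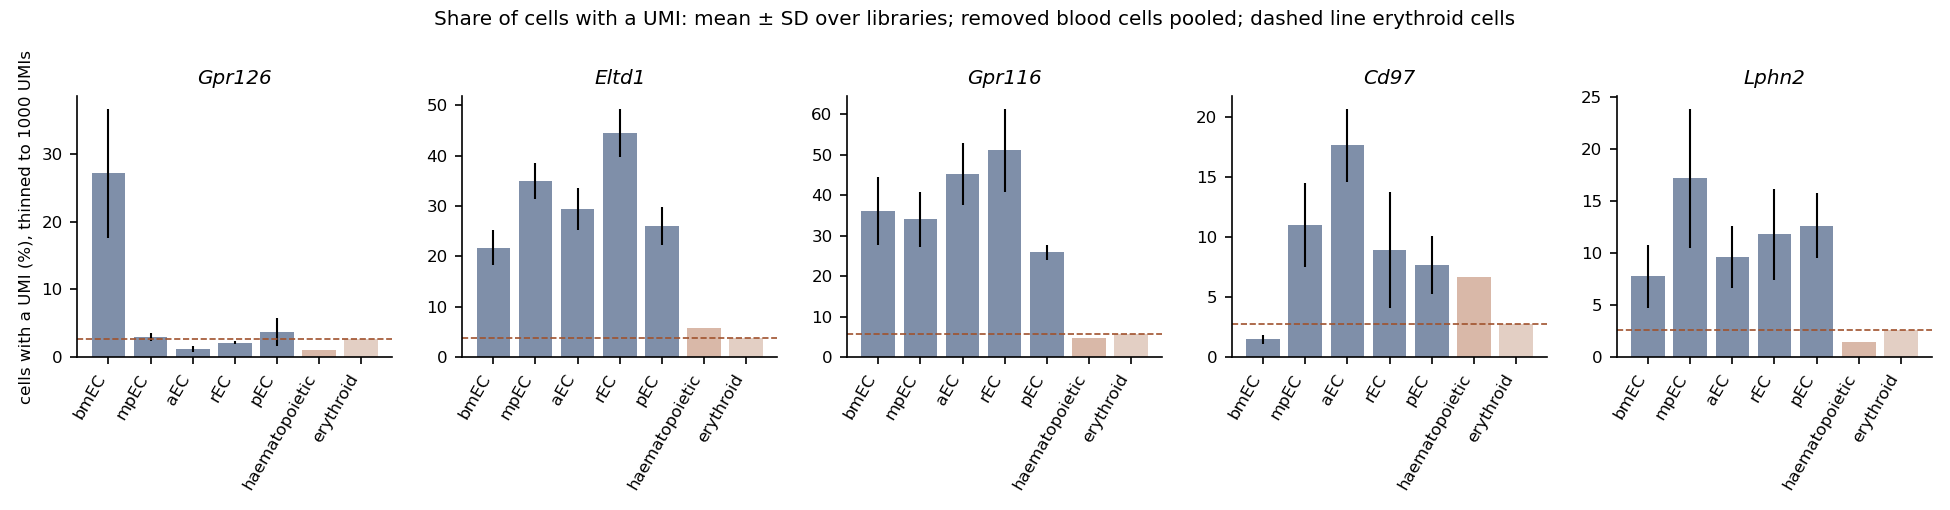
Percentage of cells with at least 1 UMI of each receptor after thinning to 1000 UMIs, by class (bars are the mean over libraries, error bars the SD), beside the pooled haematopoietic and erythroid cells of the same tables as background, with a dashed line at the erythroid share. Gpr126 reaches 27.1% in bmEC-like cells and lies at 1.16% in aEC-like cells, beside 1.07% in haematopoietic cells.

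Cd97 was found in 17.6% of aEC-like cells (45.4% unthinned and pooled) and in 1.48% of bmEC-like cells (5.37% unthinned and pooled), which was below the erythroid share of 2.81%, so that its bmEC-like level is read as background. That reading takes erythroid cells to lack Cd97, which was not tested. They were also deeper, with a median of 6710 UMIs against 4025 in bmEC-like cells. Below, at background has this meaning for Cd97. The haematopoietic share of Cd97, which leukocytes express, was 6.64%. The shares of Eltd1 (21.7% in bmEC-like to 44.5% in rEC-like cells), Gpr116 (25.9% in pEC-like to 51.1% in rEC-like cells) and Lphn2 (7.78% in bmEC-like to 17.2% in mpEC-like cells) were above both backgrounds in every class (at most 5.85% for Eltd1, 5.75% for Gpr116 and 2.64% for Lphn2).

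The aged contrast asked how receptor levels differ between 75-week and 12-week females. Of 20 tests (5 receptors in 4 classes), 16 passed an adjusted p of 0.05, 15 higher and 1 lower in aged cells. These shares stand against a wide background, since 61% of genes tested in bmEC-like (30% higher and 31% lower), 64.5% in mpEC-like (32.6% and 31.9%), 59.1% in aEC-like (29.1% and 30%) and 48.1% in rEC-like cells (24.4% and 23.7%) also passed. The median log2 fold change over the 5 receptors was 0.47 in bmEC-like, 0.47 in mpEC-like, 0.46 in aEC-like and, highest, 0.90 in rEC-like cells, against 0.01, 0.01, -0.02 and 0.02 over all genes tested. Age, the higher depth, the higher mitochondrial share and any difference in how the aged libraries were made or counted cannot be told apart here. These libraries also shared fewer barcodes with the others and alone held a set of genes that was left out. In the first clustering, without integration, 1786 and 1844 aged cells fell in clusters named aEC, and 2 and 4 in clusters named bmEC. CPM in the contrasts are scaled within the fit of a class, and scaling by plain totals instead raised aged values by 0.39 (bmEC-like), 0.22 (mpEC-like), 0.10 (aEC-like) and 0.09 (rEC-like) on the log2 scale, with no called receptor changing direction.

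In aged bmEC-like cells Gpr126 rose from 274 and 268 CPM in the adult libraries to 532 and 601 CPM, a log2 fold change of 1.06 (SE 0.05, adjusted p = 3.17e-20). Both aged libraries lay above all 8 others. Its thinned share of cells was higher likewise, from 21.8% and 21.6% of adult to 44.0% and 46.1% of aged bmEC-like cells, and the log2 fold change lay above the mean of the other 3 classes by 1.89 (SE 0.16, adjusted p = 5.23e-16). That mean includes the aEC-like value of -2.10 between levels at background, beside -0.20 for the mpEC-like and 0.06 for the rEC-like class. Stab2 was also higher in these cells, from 1613 and 1605 CPM to 2601 and 2758 CPM on plain totals, and Gpr126 per 100 Stab2 UMIs went from 16.0 and 15.9 to 25.4 and 27.0. The class was smaller in aged libraries, with 262 and 260 cells (11.7% and 11.2% of ECs) against 2187 and 2240 adult cells (40.6% and 42.8%). The part of a shift within the class in the Gpr126 rise was not tested, but the values within clusters can be given on plain totals, on which the class itself went from 259 and 255 CPM to 661 and 746 CPM. A cluster led by Slc39a1 had 425 and 479 adult cells but 14 and 15 aged cells. Within the cluster led by Clca1, which held most of the class in both groups, Gpr126 was at 266 and 261 CPM in adult and 729 and 788 CPM in aged libraries. In the Fos-led cluster (24 and 25 aged cells) it was at 244 and 255 CPM against 684 and 736 CPM. In the Cxcl10-led cluster (31 and 26 aged cells) the gap was small, at 212.5 and 277 CPM in adult and 289 and 287 CPM in aged libraries. The unnamed Ptx3-led cluster, whose Gpr126 level was like that of the class, had 149 and 148 adult and 128 and 114 aged cells, with 240.4 and 247 CPM in adult and 736.5 and 745 CPM in aged libraries, and counting it as bmEC-like left the log2 fold change at 1.08. Other marker sums moved both ways in the class on plain totals, a scaling that raised aged values there by 0.39 on the log2 scale. The 5 lymphatic markers summed to 148.6 to 148.9 CPM in adult and 287 to 289 CPM in aged libraries, and the 7 erythroid markers to 202 to 222 CPM and 322 to 325 CPM. The 12 haematopoietic markers were lower in aged libraries, at 715 to 789 CPM against 949 to 954 CPM. The 5 megakaryocyte markers were lower too, at 39.7 to 41.5 CPM against 83.0 to 94.7 CPM, as were the mural and pEC markers. Their part was not tested.

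**Figure D3:**
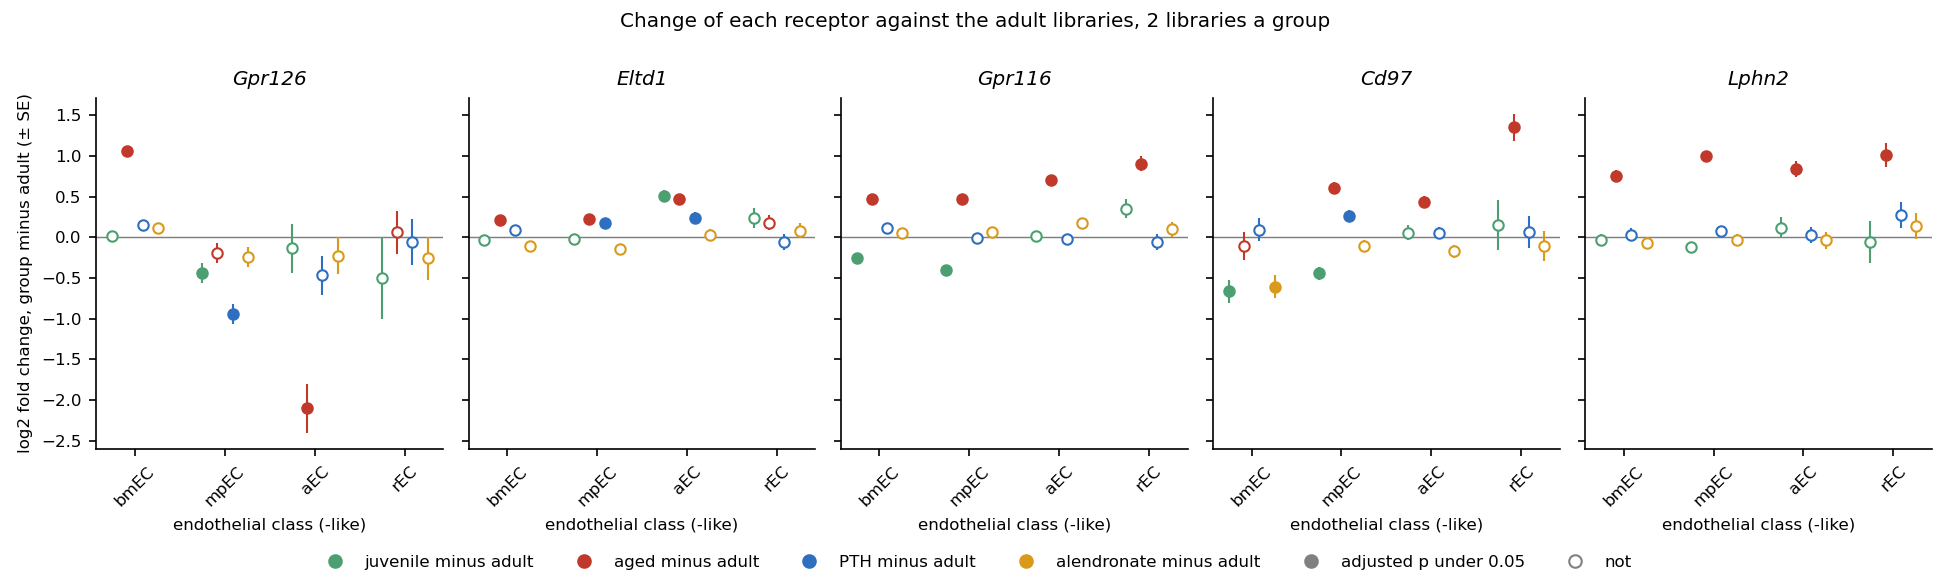
Log2 fold change of each receptor against the adult libraries (y axis, bars are the SE) in the 4 large classes for the juvenile, aged, PTH and alendronate contrasts. Filled points passed an adjusted p of 0.05, and the aged contrast has 16 of its 20 points filled.

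Gpr126 did not pass as higher in any other aged class. In aEC-like cells it went from 15.8 and 17.9 CPM in adult to 3.61 and 4.16 CPM in aged libraries (-2.10, SE 0.30, adjusted p = 3.58e-07), a change between values at background that turned to 0.20 without integration of the libraries. Stab2 went the same way there, from 104 and 153 CPM to 14.3 and 14.4 CPM on plain totals. In mpEC-like cells Gpr126 had a log2 fold change of -0.20 (adjusted p = 0.16), and in rEC-like cells 0.06 (adjusted p = 0.868). The mpEC-like value averaged clusters that differed on plain totals, since in the Igfbp5-led cluster Gpr126 was at 65.3 and 51.5 CPM in adult and 105.5 and 129 CPM in aged libraries and in the Enpep-led cluster at 37.7 and 30.8 CPM and 20.7 and 16.5 CPM, with no test of either. The rEC-like value did so too, with 19.7 and 23.3 CPM in adult and 5.12 and 5.93 CPM in aged Timp4-led cells against 37.7 and 26.8 CPM and 87.5 and 50.1 CPM in Tagln-led cells, and without the Tagln-led cluster it passed as lower.

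**Figure D4:**
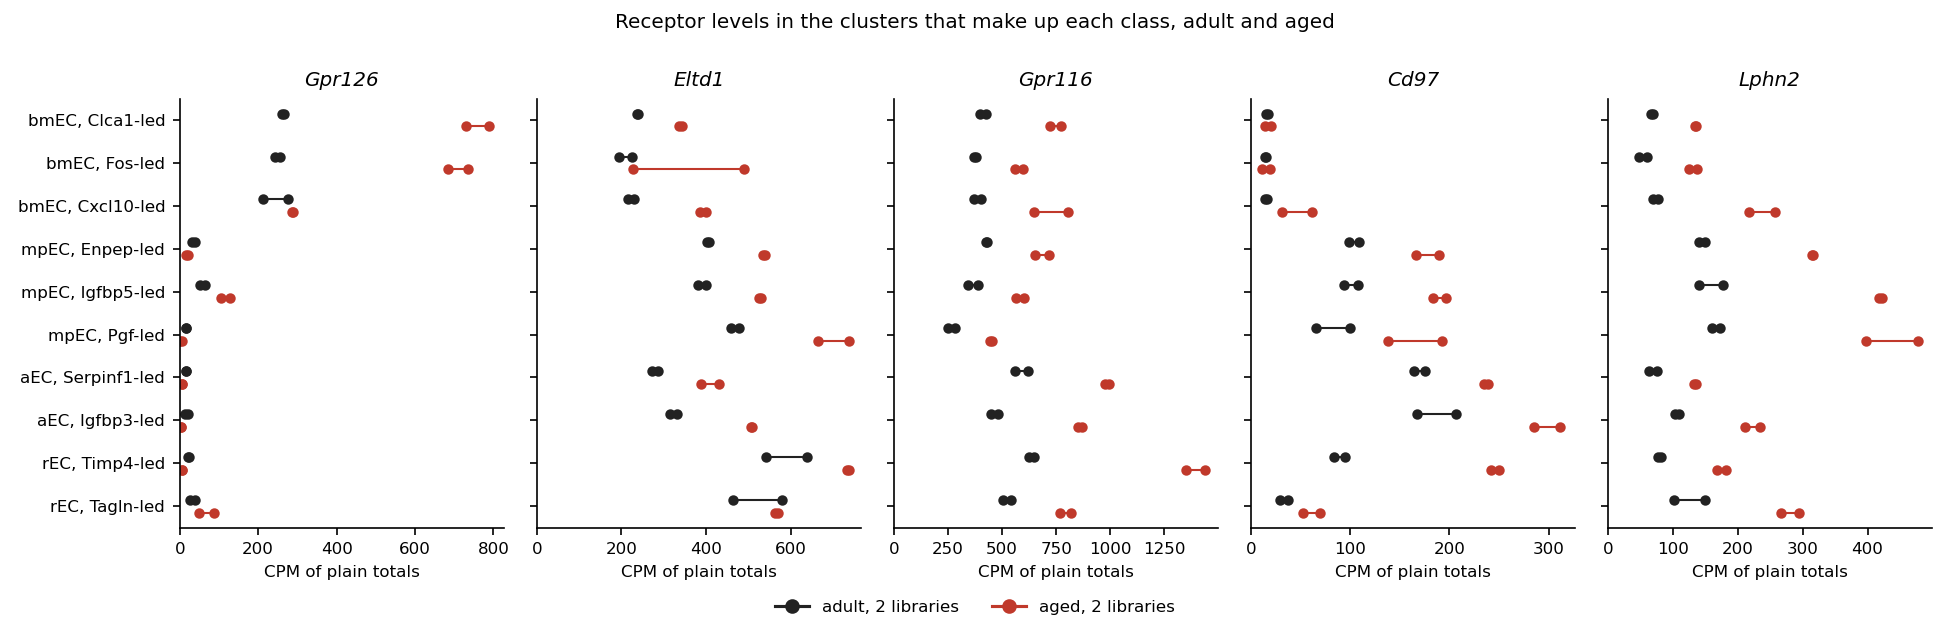
Levels of the receptors in CPM (plain totals, x axis) in adult and aged libraries within single clusters with enough cells in both groups, each named by its leading gene, with 1 point per library and a line joining the 2 of a group. Gpr126 in the Clca1-led bmEC-like cluster is at 266 and 261 CPM in adult and 729 and 788 CPM in aged libraries.

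Lphn2 was higher in the aged libraries of all 4 classes. In mpEC-like cells it went from 159.5 and 151 CPM to 314 and 310.1 CPM (1.00, adjusted p = 2.40e-19), in bmEC-like cells from 72.1 and 68.1 CPM to 123 and 113 CPM (0.75, adjusted p = 1.12e-10), in aEC-like cells from 85.1 and 87.9 CPM to 157 and 151 CPM (0.84), and in rEC-like cells from 89.1 and 116 CPM to 202 and 209.6 CPM (1.02). The aged libraries lay above both adult libraries in each class, and the thinned share of mpEC-like cells with Lphn2 went from 14.0% and 13.8% to 30.7% and 29.1%.

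Gpr116 rose in the aged libraries of all 4 classes too, most in rEC-like cells, from 583 and 611 CPM to 1138 and 1095 CPM (0.90). In aEC-like cells it went from 557 and 532 CPM to 901 and 881 CPM (0.71), in bmEC-like cells from 437 and 414 CPM to 568 and 611 CPM (0.47, adjusted p = 3.47e-11) and in mpEC-like cells from 399 and 416 CPM to 582 and 547 CPM (0.47). The 7 rEC markers were higher in part of these classes, from 483.5 to 487 CPM in adult to 698 to 725 CPM in aged mpEC-like cells, and from 1153 to 1238 CPM to 1493 to 1559 CPM in aEC-like cells. Adult and aged marker ranges overlapped in bmEC-like (180 to 199 CPM and 192 to 236 CPM) and rEC-like cells (4931 to 5040 CPM and 4668 to 5318 CPM). Their part was not tested. The rEC-like effect exceeded the mean of the other 3 classes by 0.28 (SE 0.07, adjusted p = 0.0128), a call lost without adult replicate 1 (0.23) or aged replicate 1 (0.25). The backgrounds of the aged interaction tests were 15.2% (bmEC-like), 2.62% (mpEC-like), 6.38% (aEC-like) and 4.29% (rEC-like).

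Cd97 rose most in aged rEC-like cells, from 68.2 and 63.5 CPM to 165 and 171 CPM (1.35, SE 0.17, adjusted p = 9.90e-08), above the mean effect of the other 3 classes by 0.96 (SE 0.16, adjusted p = 1.25e-05). That mean includes the bmEC-like value of -0.11 at background, beside 0.61 in mpEC-like and 0.43 in aEC-like cells. The haematopoietic markers summed to 781 to 839 CPM in adult and 785 to 832 CPM in aged rEC-like cells. The 9 mesenchymal markers went from 61.5 to 69.7 CPM in adult to 133.5 to 169 CPM in aged rEC-like cells and the 7 erythroid markers from 202.9 to 325.6 CPM to 427.3 to 1903 CPM. The part of either in the rEC-like changes of Cd97, Gpr116 and Lphn2 was not tested. Within clusters, on plain totals, Cd97 was at 94.7 and 83.8 CPM in adult and 242 and 250.1 CPM in aged libraries in Timp4-led cells, which held most of the class in both groups, and at 29.6 and 37.5 CPM against 52.8 and 69.3 CPM in Tagln-led cells. It also rose in mpEC-like cells, from 106 and 102 CPM to 165.5 and 152 CPM (0.61), and in aEC-like cells, from 175 and 185 CPM to 244 and 241 CPM (0.43, or 0.15 and no longer a call without integration). In bmEC-like cells, at background, it was at 16.6 and 18.2 CPM in adult and 16.5 and 15.8 CPM in aged libraries (-0.11, adjusted p = 0.619).

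Eltd1 was higher in the aged libraries of 3 of the 4 classes. It went from 296 and 309 CPM to 428 and 406 CPM in aEC-like cells (0.46), from 412 and 420.4 CPM to 486 and 486 CPM in mpEC-like cells (0.22, adjusted p = 0.000164) and from 243 and 237 CPM to 284 and 270.3 CPM in bmEC-like cells (0.21, adjusted p = 0.00115). The 7 rEC markers were higher in the same aged aEC-like and mpEC-like cells, as given above for Gpr116, and their part was not tested. The bmEC-like call was lost without aged replicate 1 (0.14). In rEC-like cells its log2 fold change of 0.18 did not pass (adjusted p = 0.118).

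In juvenile cells 6 of 20 tests passed, 1 higher and 5 lower than adult, where 36.9% of all genes passed in bmEC-like (18.4% higher and 18.5% lower), 29.4% in mpEC-like (14.8% and 14.6%), 16.7% in aEC-like (8.16% and 8.49%) and 3.55% in rEC-like cells (1.54% and 2.01%). Cd97 was lower in mpEC-like cells, at 79.2 and 74.1 CPM against 106 and 102 CPM (-0.44), and in bmEC-like cells, at 11.1 and 10.9 CPM against 16.6 and 18.2 CPM (-0.67, adjusted p = 0.000167), values at background that gave 0.01035 without integration, where 35 and 31 juvenile cells were bmEC-like against 2114 and 1920 with it. The cells compared were largely others. With classes set from single cells the mpEC-like value was -0.23 and did not pass. The haematopoietic markers were lower there as well, at 366 to 397 CPM against 831 to 854 CPM in mpEC-like and 503 to 511 CPM against 949 to 954 CPM in bmEC-like cells. As said above, their sum is not read as an amount of leukocyte RNA, and their part in the Cd97 difference was not tested.

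Gpr116 was lower in juvenile bmEC-like cells, at 344 and 368 CPM against 437 and 414 CPM (-0.26), and in mpEC-like cells, at 303 and 314 CPM against 399 and 416 CPM (-0.40). The 7 rEC markers were lower in the same cells, at 78.8 to 80.3 CPM against 180.0 to 199 CPM in bmEC-like and 223 to 226 CPM against 483.5 to 487 CPM in mpEC-like cells, and their part was not tested. Gpr126 in mpEC-like cells was at 30.7 and 31.9 CPM against 46.7 and 38.1 CPM (-0.44, adjusted p = 0.00476). The 8 bmEC markers summed to 2770 and 2766 CPM in these juvenile cells and to 3523 and 3525 CPM in the adult ones. Stab2 was at 476 and 467 CPM against 431 and 441 CPM on plain totals. The part of sinusoidal RNA in the Gpr126 difference was not tested. The class was also spread differently, with 589 and 536 juvenile against 412 and 446 adult cells in the Igfbp5-led cluster and 504 and 449 against 784 and 788 cells in the Enpep-led one. On plain totals Gpr126 was at 32.1 and 31.0 CPM against 65.3 and 51.5 CPM in the first. In the second it was at 31.1 and 30.7 CPM against 37.7 and 30.8 CPM, a small gap. Eltd1 was higher in aEC-like cells, at 441 and 421 CPM against 296 and 309 CPM (0.51), and this differed from the mean effect of the other 3 classes by 0.45 (SE 0.08, adjusted p = 8.54e-05). The class was spread differently over its clusters, with 119 and 132 juvenile against 441 and 430 adult cells in the Serpinf1-led and 156 and 137 against 263 and 262 cells in the Igfbp3-led cluster. On plain totals Eltd1 was at 386.6 and 306.6 CPM against 272 and 287 CPM in the first and at 459 and 501 CPM against 315 and 330.0 CPM in the second. The 7 mpEC markers summed to 1225 to 1261 CPM in juvenile and 861 to 874 CPM in adult aEC-like cells. Their part was not tested. In juvenile rEC-like cells, which numbered 156, 0 of 5 receptors passed with edgeR or DESeq2 and 1 had an unadjusted p under 0.05 in edgeR. Without the Tagln-led cluster, Gpr116 passed there at 0.78. The Gpr126 call was lost with DESeq2 (-0.43), at resolution 0.8 (-0.36) and without adult replicate 1 (-0.28), and the bmEC-like Gpr116 call without integration (-0.26, with the few juvenile bmEC-like cells given above). The backgrounds of the juvenile interaction tests were 4.45% (bmEC-like), 3.67% (mpEC-like), 2.2% (aEC-like) and 1.72% (rEC-like).

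Under PTH 4 of 20 tests passed, 3 higher and 1 lower than adult, where 8.81% of all genes passed in bmEC-like (5.01% higher and 3.8% lower), 17.6% in mpEC-like (8.57% and 9.04%), 7.98% in aEC-like (3.77% and 4.22%) and 5.61% in rEC-like cells (2.78% and 2.83%). Gpr126 fell in mpEC-like cells from 46.7 and 38.1 CPM to 18.2 and 23.8 CPM (-0.94, SE 0.13, adjusted p = 8.94e-08), and both PTH libraries lay below both adult libraries. Its thinned share went from 3.73% and 3.57% of adult to 1.82% and 2.32% of PTH mpEC-like cells, under the erythroid share. On plain totals the PTH libraries were at 18.1 and 23.6 CPM, above the erythroid level of 14.2 CPM (11.3 to 17.5 CPM), so share and level differ. The erythroid cells were deeper, so the comparison cannot decide whether the PTH level is background. The effect lay below the mean of the other 3 classes by a log2 difference of -0.82 (SE 0.17, adjusted p = 0.000962), a call lost without adult replicate 1 (-0.66). That mean includes -0.47 in aEC-like cells, at background, beside 0.15 in bmEC-like and -0.06 in rEC-like cells. The fall did not pass without integration (-0.31) or with classes set from single cells by marker UMIs (-0.54). The backgrounds of the PTH interaction tests were 2.6% (bmEC-like), 3.32% (mpEC-like), 1.06% (aEC-like) and 4.32% (rEC-like). The Enpep-led and the Igfbp5-led clusters both had lower values on plain totals (17.1 and 19.97 CPM against 37.7 and 30.8 CPM, and 21.7 and 30.4 CPM against 65.3 and 51.5 CPM). Other sinusoidal markers were lower with it in mpEC-like cells: Stab2 was at 431 and 441 CPM in adult and 228 and 212.5 CPM in PTH libraries on plain totals, and the 8 bmEC markers together went from 3523 and 3525 CPM to 1950 and 1939 CPM. Gpr126 per 100 Stab2 UMIs was 10.5 and 8.38 in adult and 7.95 and 11.1 in PTH libraries, so the ratio overlapped. What share of the fall goes with sinusoidal RNA or cells in the class was not tested.

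**Figure D5:**
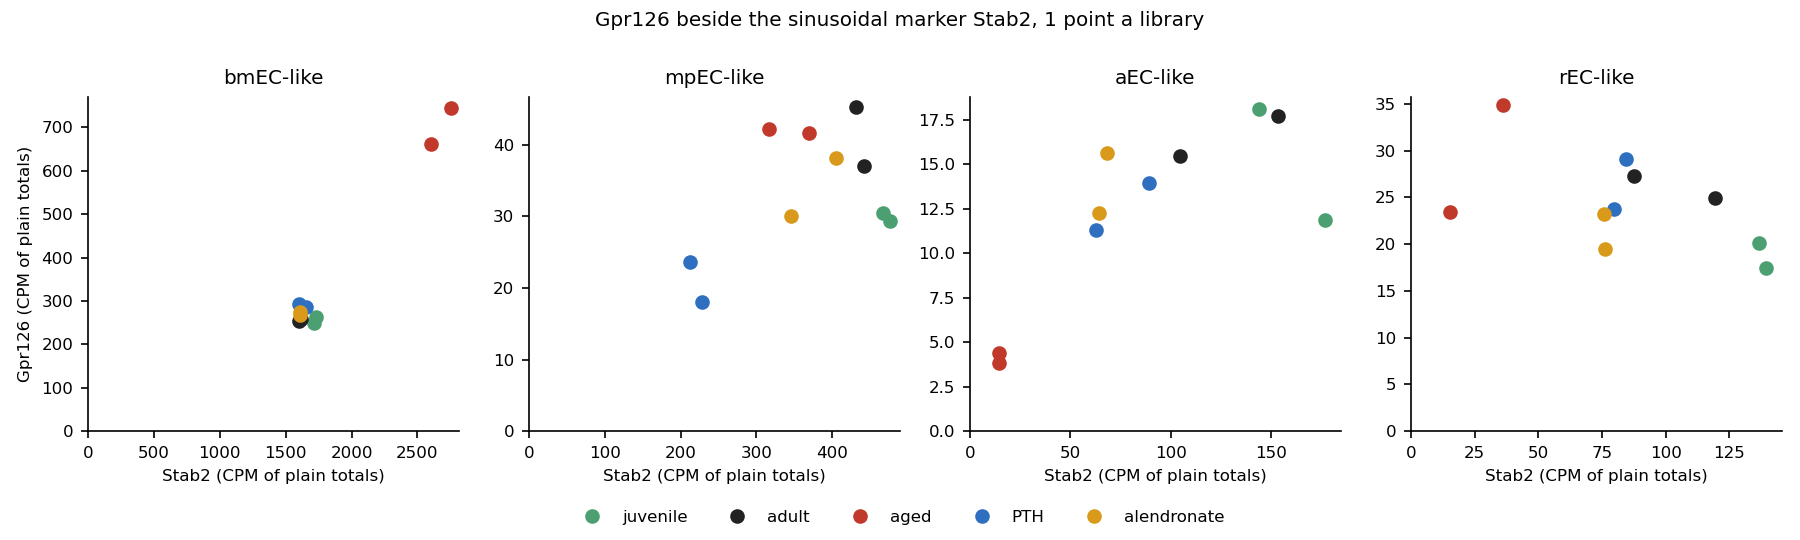
Gpr126 against Stab2 in CPM (plain totals) for the 4 large classes, with 1 point per library coloured by group. In mpEC-like cells the PTH libraries have less of both genes than the adult libraries (Gpr126 18.1 and 23.6 CPM against 45.3 and 37.0 CPM, Stab2 228 and 212.5 CPM against 431 and 441 CPM), and in bmEC-like cells the aged libraries have more of both.

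The other PTH changes were small, and each was lost under at least 5 of 24 alternatives. Eltd1 in mpEC-like cells was at 457 and 478 CPM against 412 and 420.4 CPM (0.17, adjusted p = 0.0103), Cd97 in mpEC-like cells at 119 and 128 CPM against 106 and 102 CPM (0.26, adjusted p = 0.00585) and Eltd1 in aEC-like cells at 347 and 364 CPM against 296 and 309 CPM (0.24, adjusted p = 0.0128). The 8 aEC markers were higher in PTH mpEC-like cells (501 to 529 CPM against 366.5 to 379 CPM) and the 7 mpEC markers in PTH aEC-like cells (1055 to 1259 CPM against 861 to 874 CPM), and their part was not tested. Among the settings that ended these calls were leaving out PTH replicate 2 (0.13, 0.19 and 0.20) and leaving out adult replicate 2 (0.19, 0.23 and 0.27). In bmEC-like cells Gpr126 was at 305 and 297 CPM against 274 and 268 CPM and did not pass (0.15, adjusted p = 0.0704). Summed over all ECs of a library, which mixes levels with class shares, Gpr126 was lower under PTH, at 102 and 97.5 CPM against 160.5 and 158.7 CPM (-0.68, where 29.6% of genes passed). In these sums Cd97 (0.60), Eltd1 (0.26) and Lphn2 (0.21) passed as higher, and Gpr116 did not pass (0.04). The bmEC-like share went from 40.6% and 42.8% of adult ECs to 29.0% and 21.9% under PTH. Such sums alone cannot tell fewer cells of a type from less RNA per cell. The level within bmEC-like cells, given above, was not lower under PTH.

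Under alendronate 1 of 20 tests passed, where 17.7% of all genes passed in bmEC-like (9.87% higher and 7.81% lower), 12.9% in mpEC-like (7.7% and 5.22%), 8.06% in aEC-like (4.5% and 3.57%) and 2.87% in rEC-like cells (1.52% and 1.35%). Cd97 was lower in bmEC-like cells, at 10.4 and 12.5 CPM against 16.6 and 18.2 CPM (-0.61, adjusted p = 0.00277), values at background. The 7 mpEC markers (542.5 to 546.5 CPM against 704.6 to 706.3 CPM) and the 7 rEC markers (137 to 150 CPM against 180 to 199 CPM) were lower in these cells. The 8 aEC markers were higher (149 to 169 CPM against 137 to 146 CPM), and the part of these markers was not tested. The call was lost with DESeq2 (-0.59), with classes set from single cells (-0.43) and without alendronate replicate 1 (-0.48). Gpr126 in the same class was at 297 and 287 CPM against 274 and 268 CPM and did not pass (0.11, adjusted p = 0.13). The rEC-like share of ECs was 18.3% to 19.5% under alendronate and 6.84% to 7.20% in adult libraries. Of the 20 edgeR interaction tests for alendronate, 0 passed and 4 had an unadjusted p under 0.05, with backgrounds of 1.41% (bmEC-like), 0.779% (mpEC-like), 0.884% (aEC-like) and 1.29% (rEC-like).

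Of the known binding partners of the receptors, 15 were in the tables, of which 9 passed the filter on low counts between classes and 6 did not. Cd55, the partner of Cd97, was highest where Cd97 was lowest, at 206 ± 46.1 CPM in bmEC-like and 14.99 CPM in aEC-like cells (log2 fold changes against the other classes 2.55 and -2.29). Among partners of Gpr126, Prnp (the prion protein) was at 11.98 ± 3.56 CPM in bmEC-like and 205 ± 23.5 CPM in rEC-like cells (-3.15 and 2.09), and Col4a1 (a type IV collagen chain) at 416 CPM in bmEC-like and 1561 CPM in mpEC-like cells (-1.60 for bmEC-like cells). Among the latrophilin partners Flrt3 was higher in bmEC-like cells (48.3 CPM, 2.91) and Flrt2 in mpEC-like cells (20.7 CPM, 1.24). In all, 2 partners were higher and 3 lower in bmEC-like, 1 higher in mpEC-like, 1 higher and 3 lower in aEC-like, and 1 higher and 1 lower in rEC-like cells, of 9 tested, where 16.5%, 5.94%, 13.5% and 14.3% of all genes passed in either direction.

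Among these partners Col4a1 rose in the juvenile libraries of each large class. It was at 611 and 620.0 CPM in juvenile bmEC-like cells against 274 and 258 CPM in adult ones (1.21), at 2374 and 2194 CPM in aEC-like cells against 812 and 797 CPM (1.51), and at 2317 and 1921 CPM in rEC-like cells against 690.4 and 712.5 CPM (1.59). Under PTH it rose in mpEC-like cells from 1277 and 1237 CPM to 1964 and 2096 CPM (0.69), the cells in which Gpr126 fell. Cd55 fell there from 62.0 and 65.9 CPM to 24.8 and 27.7 CPM (-1.25). Cd55 is highest in bmEC-like cells, and the 8 bmEC markers were lower in the same cells, at 1950 and 1939 CPM against 3523 and 3525 CPM. Their part in the Cd55 fall was not tested. Of 10 partners tested in bmEC-like cells, 6 were higher and 1 lower in juvenile libraries (18.4% and 18.5% of all genes), 8 higher in aged (30% of all genes), 4 higher in PTH (5.01% of all genes) and 4 higher in alendronate libraries (9.87% of all genes). In juvenile libraries of the other classes, 7 of 9 were higher in mpEC-like cells (14.8% of all genes), 7 of 9 in aEC-like cells (8.16%) and 2 of 8 in rEC-like cells (1.54%). Under PTH, 5 were higher and 1 lower of 9 in mpEC-like cells (8.57% and 9.04% of all genes). There were 3 higher and 1 lower of 9 in aEC-like cells (3.77% and 4.22%) and 1 of 8 higher in rEC-like cells (2.78%). Under alendronate, 4 of 9 were higher in mpEC-like cells (7.7%) and 1 was higher and 1 lower of 9 in aEC-like cells (4.5% and 3.57%). In aged libraries of the other classes, 5 of 9 were higher in mpEC-like cells (32.6% of all genes), 2 higher and 6 lower of 9 in aEC-like cells (29.1% and 30%), and 1 of 8 higher in rEC-like cells (24.4%). Flrt3, a partner of Lphn2, rose in aged bmEC-like cells from 28.8 and 29.4 CPM to 55.0 and 62.1 CPM (1.01), and Itgav, an integrin chain, in aged mpEC-like cells from 29.4 and 31.5 CPM to 49.5 and 56.3 CPM (0.80).

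Of the 8 G-protein alpha subunit genes, which carry the signal from the receptors, Gna12 was higher in bmEC-like cells (174 ± 24.4 CPM, 1.25) and lower in rEC-like cells (44.3 CPM, -1.22), and Gnas was higher in rEC-like cells (32.7 ± 10.7 CPM, 1.15). Class means of Gnas were low, from 10.0 to 32.7 CPM, beside 928 to 1184 CPM for Gnai2. Gnaq was higher in the aged libraries of all 4 classes, by log2 fold changes of 0.92 (bmEC-like, from 87.5 and 88.3 CPM to 166 and 167 CPM), 1.16 (mpEC-like), 1.25 (aEC-like) and 1.27 (rEC-like). In aged libraries 4 of 8 subunits were higher in bmEC-like cells, 7 higher and 1 lower of 8 in mpEC-like, 6 higher and 1 lower of 8 in aEC-like, and 5 of 7 higher in rEC-like cells, where 30%, 32.6%, 29.1% and 24.4% of all genes were higher. In juvenile libraries 6 of 8 were higher in bmEC-like cells (18.4% of all genes) and 5 higher and 1 lower in mpEC-like cells (14.8% and 14.6%). There, 0 of 8 passed in aEC-like (16.7% in either direction) and 0 of 7 in rEC-like cells (3.55%). Under PTH 3 of 8 were higher in bmEC-like (5.01%), 2 higher and 1 lower in mpEC-like (8.57% and 9.04%), 1 of 8 higher in aEC-like (3.77%) and 1 of 7 in rEC-like cells (2.78%). Under alendronate 3 of 8 were higher in bmEC-like (9.87%), 1 in mpEC-like (7.7%) and 1 in aEC-like cells (4.5%), and 0 of 7 passed in rEC-like cells (2.87% in either direction).

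The tables held 21 other adhesion receptors, of which 7 passed the filter on low counts and 14 did not. Gpr97, like Gpr126, was highest in bmEC-like cells in all 10 libraries, at 209 ± 34.3 CPM, followed by 85.9 CPM in mpEC-like, 65.3 CPM in pEC-like, 18.8 CPM in aEC-like and 14.1 CPM in rEC-like cells. Gpr56 averaged 259.5 ± 76.2 CPM in rEC-like cells, its top class in 8 libraries of 10. Gpr124 (42.0 CPM in aEC-like, 11.1 CPM in rEC-like cells, -1.64) and Lphn1 (13.4 CPM in rEC-like cells, -1.10) were lower in rEC-like cells. Of the 7, 1 was higher in bmEC-like, 1 higher in mpEC-like, 2 lower in aEC-like and 1 higher and 4 lower in rEC-like cells, against 16.5%, 5.94%, 13.5% and 14.3% of all genes that passed in either direction. In aged libraries Gpr97 fell in aEC-like cells from 23.7 and 20.2 CPM to 6.31 and 5.05 CPM (-1.94) and in rEC-like cells from 18.5 and 19.1 CPM to 4.67 and 4.42 CPM (-2.03), while it rose in bmEC-like cells from 175 and 165 CPM to 230.1 and 231 CPM (0.44). Its level in haematopoietic and erythroid cells was not measured, so the aEC-like and rEC-like values are not read as expression. Under PTH it fell in mpEC-like cells from 93.6 and 101 CPM to 72.5 and 77.7 CPM (-0.36). The 8 bmEC markers were lower in the same cells, at 1939 to 1950 CPM against 3523 to 3525 CPM, and their part was not tested. Gpr56 rose in the aged libraries of all 4 classes, most in rEC-like cells, from 242 and 231 CPM to 383 and 364 CPM (0.66). Of the other adhesion receptors tested, 3 of 7 were higher in aged bmEC-like cells (30% of all genes) and 3 higher and 2 lower of 7 in mpEC-like cells (32.6% and 31.9%). There were 2 higher and 1 lower of 5 in aEC-like cells (29.1% and 30%) and 1 higher and 1 lower of 6 in rEC-like cells (24.4% and 23.7%). In juvenile libraries 4 of 7 were higher in bmEC-like (18.4%), 4 of 7 in mpEC-like (14.8%) and 4 of 5 in aEC-like cells (8.16%), and 0 of 6 passed in rEC-like cells (3.55% in either direction). Under PTH 1 of 7 was higher in bmEC-like cells (5.01%), 1 higher and 2 lower of 7 in mpEC-like cells (8.57% and 9.04%). There was 1 lower each in aEC-like (of 5, 4.22%) and rEC-like cells (of 6, 2.83%). Under alendronate 1 of 7 was lower in mpEC-like (5.22%) and 1 of 5 in aEC-like cells (3.57%). There, 0 of 7 passed in bmEC-like (17.7% in either direction) and 0 of 6 in rEC-like cells (2.87%).

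Over the 48 sums of a class in a library, the genes most like each receptor by Pearson's r of log2 CPM (6702 genes with at least 20 CPM) were Cxadr, Ap1b1 and Gpm6a for Gpr126 (0.94 each), Pcdh1 (0.94), Rapgef4 (0.93) and App (0.93) for Cd97, Tns1 (0.94), Mllt6 (0.93) and Lifr (0.92) for Gpr116, Ccdc85a (0.89), Wwtr1 (0.88) and Fam198b (0.86) for Eltd1, and Dysf (0.81), Nxpe2 (0.79) and Arhgap29 (0.78) for Lphn2. Gpr126 and Cd97 were opposed over the same sums (r = -0.893). The sums share libraries and depth, so these values are a description.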

How the data were processed

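The deposited tables hold raw UMI counts per gene and cell, which the authors made with STAR 2.7.10a, UMI-tools 1.1.2 and featureCounts 2.0.3 on mm10, per the submitters' processing notes. The 10x kit version of each library is not given in the sources used here. Barcodes with 500 to 6000 genes and under 25% mitochondrial UMIs were kept (46283 of 47466). A set of 276 genes whose names begin with U, present only in the aged tables (1.52% and 1.53% of UMIs), was left out. Libraries were clustered with Seurat 5.3.0 (R 4.3.3), first to remove other cell types and then after anchor integration (2000 features, 30 components, resolution 0.5). A cluster was named where at least 3 markers of a class rose by over 0.5 on the log2 scale and the class score led, unless its leading genes were markers of another type or its depth was low. By this rule the Gm10800-led cluster (haemoglobin genes among its top genes) and the Ptx3-led cluster (a lymphatic marker) stayed unnamed. Doublets were not removed in the analysis reported, and their removal was an alternative.

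UMIs were summed per class and library (at least 20 cells) and tested with edgeR 4.0.16 (TMM, filterByExpr, quasi-likelihood, Benjamini-Hochberg over all genes tested), with the library as a block between classes. Interactions compare the effect in a class with its mean in the other 3 large classes. With 2 libraries against 2, an exact permutation test cannot go below p = 0.333. Tests were checked on simulated counts: 196 of 196 genes changed 3-fold were recovered between classes (11714 genes) and 93 of 196 changed 2-fold in aged bmEC-like cells (12527 genes).

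The members, gene lists and tests were chosen with earlier results of these data known. The text names the 5 receptors, the other adhesion receptors at 20 CPM or more in a class, the listed partners and G-protein subunits, and the 3 genes most like each receptor. Some choices came after the values were seen. These were taking out clusters with Ptprc above 20 CPM, leaving haemoglobin-led cells unnamed, keeping the Tagln-led cluster, counting the Gm10800-led cluster as mpEC-like and the Ptx3-led cluster as bmEC-like as alternatives (their names differed between 2 runs of the integration), leaving out the U-named genes, the erythroid background, plain-total scaling, Ddx39 and the values within clusters. Adgra1, Adgrb3, Adgrf1, Adgrg4, Tenm1 and Sftpd were not analysed here. Same-numbered libraries did not deviate together (40 correlations from -0.0353 to 0.044), so numbers do not pair them. Poisson intervals are exact at 95% and cover counting error only.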

Additional observations from a re-analysis of the deposited data

Results flagged for a closer look

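The effect of a group on a receptor differed between classes in 15 cases, each by an edgeR interaction test of the effect in 1 class minus its mean in the other 3 large classes, with Benjamini-Hochberg adjustment over all genes. Values are log2 differences, and each effect compares 2 libraries with the same 2 adult libraries. Single libraries were not screened as outliers, since no group has more than 2.

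In aged libraries Gpr126 differed in bmEC-like cells by 1.89 (SE 0.16, adjusted p = 5.23e-16) and in aEC-like cells by -2.42 (SE 0.32, adjusted p = 2.09e-08), the second between levels at background. That aEC-like value (-2.10) is part of the mean behind the first, beside -0.20 for the mpEC-like and 0.06 for the rEC-like class. Cd97 differed in rEC-like cells by 0.96 (SE 0.16, adjusted p = 1.25e-05) and in bmEC-like cells by -0.83 (SE 0.19, adjusted p = 0.000538), the second again at background and part of the mean behind the first (-0.11, beside 0.61 in mpEC-like and 0.43 in aEC-like cells). Gpr116 differed in rEC-like cells by 0.28 (SE 0.07, adjusted p = 0.0128) and Eltd1 in aEC-like cells by 0.25 (SE 0.07, adjusted p = 0.0129), and both of these calls were lost without adult replicate 1 (0.23 and 0.22) or aged replicate 1 (0.25 and 0.22). Of all genes, 15.2% (bmEC-like), 2.62% (mpEC-like), 6.38% (aEC-like) and 4.29% (rEC-like) passed this test.

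In juvenile libraries Eltd1 differed in aEC-like cells by 0.45 (SE 0.08, adjusted p = 8.54e-05), in bmEC-like cells by -0.27 (SE 0.07, adjusted p = 0.00514) and in mpEC-like cells by -0.23 (SE 0.07, adjusted p = 0.0327). Gpr116 differed in rEC-like cells by 0.53 (SE 0.10, adjusted p = 0.000497), in mpEC-like cells by -0.41 (SE 0.07, adjusted p = 2.94e-05) and in bmEC-like cells by -0.24 (SE 0.07, adjusted p = 0.0207), and Cd97 in bmEC-like cells, at background, by -0.58 (SE 0.18, adjusted p = 0.0387). Of these 7, those of Eltd1 in aEC-like and Gpr116 in mpEC-like cells kept their call when each library was left out. The juvenile Eltd1 effects behind them were -0.03 (bmEC-like), -0.02 (mpEC-like), 0.51 (aEC-like) and 0.24 (rEC-like), and only the aEC-like effect passed. For Gpr116 the effects were -0.26, -0.40, 0.01 and 0.35 in the same order, and for Cd97 -0.67, -0.44, 0.06 and 0.15. For both genes the bmEC-like and mpEC-like effects passed, and the others did not. Under PTH, Gpr126 differed in mpEC-like cells by -0.82 (SE 0.17, adjusted p = 0.000962) and in bmEC-like cells by 0.63 (SE 0.14, adjusted p = 0.0033). The effects behind these means were 0.15 for the bmEC-like (not passed), -0.94 for the mpEC-like, -0.47 for the aEC-like (at background) and -0.06 for the rEC-like class. The first was lost without adult replicate 1 (-0.66) and the second without adult replicate 1 or PTH replicate 2 (0.60 each). The backgrounds for these classes lay between 1.72% and 4.45%.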

How the results depend on the processing

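Both class calls of Cd97 kept their side under all 23 alternatives. Of the 16 aged calls, 14 kept theirs under the alternatives that could be run other than leaving out a library, and 15 when each library was left out. The 4 aged calls in mpEC-like cells could not be run without integration, since 12 and 19 aged cells were under the minimum of 20. Cd97 in aged aEC-like cells lost its call with no integration (0.15), and Eltd1 in aged bmEC-like cells without aged replicate 1 (0.14). Gpr126 in aged aEC-like cells reversed with no integration (0.20), as did Cd97 in juvenile bmEC-like cells (0.01035). Without integration the classes held other cells, with 1307 and 1352 aged aEC-like cells against 628 and 645, and 35 and 31 juvenile bmEC-like cells against 2114 and 1920. Of the 4 aged results that did not pass, each passed under at least 1 alternative, in 9 of 54 values with all libraries and 1 of 40 with a library left out. All 4 PTH calls and the alendronate call were lost under at least 1 alternative. The PTH count of 4 was 1 with DESeq2, 0 with classes from single cells, 2 at resolution 0.8, and 1 to 5 with a library left out (1 without PTH replicate 2 or adult replicate 2, 2 without adult replicate 1). Gpr126 in PTH mpEC-like cells did not pass with no integration (-0.31) or with classes from single cells (-0.54). The alendronate count of 1 was 0 with DESeq2 and with classes from single cells, 3 with no integration and at resolutions 0.3 and 0.8, 2 without likely doublets, and 0 to 2 with a library left out (0 without alendronate replicate 1, 2 without either PTH library). Leaving out a library gave 2 to 7 juvenile interactions (2 without juvenile replicate 1, 3 without adult replicate 1, 4 without juvenile replicate 2) and 0 to 2 PTH interactions (0 without adult replicate 1, 1 without PTH replicate 2). Counting the Gm10800-led cluster as mpEC-like changed no call, and counting the Ptx3-led cluster as bmEC-like added 1, Gpr126 in PTH bmEC-like cells (0.15). With the replicate block, the juvenile, aged, PTH and alendronate counts were 6, 16, 4 and 1, the same as without it. At 2000 UMIs the highest shares were 43.6% (Gpr126), 64.3% (Eltd1), 68.7% (Gpr116), 29.7% (Cd97) and 29.8% (Lphn2). In the self-test, 75 of 199 simulated 2-fold changes were recovered in aged rEC-like cells (10137 genes) and 93 of 196 in aged bmEC-like cells (12527 genes).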

Other observations

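The receptors were also read in the cells that the classes leave out, pooled over libraries, with 95% exact Poisson intervals for counting error and no replicate check. The 488 mesenchymal cells had Gpr126 at 125 CPM (111 to 140), Gpr116 at 220 CPM and Cd97 at 43.0 CPM. The 1460 haematopoietic cells had Gpr126 at 9.003 CPM (7.44 to 10.8) and Cd97 at 56.6 CPM (52.6 to 60.8). The 54 mural cells had Gpr116 at 288 CPM and 2 UMIs of Gpr126 (7.02 CPM, 0.851 to 25.4).

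Among unnamed ECs, the 2756 Hba-a2-led cells had Gpr126 at 393 CPM (376 to 411) and Cd97 at 19.1 CPM, and the 1215 Ptx3-led cells had Gpr126 at 433 CPM (416 to 450) and Cd97 at 17.8 CPM, values near those of bmEC-like cells. The 1857 Gm10800-led cells had Gpr126 at 31.8 CPM (25.2 to 39.5), Cd97 at 216 CPM and Lphn2 at 263 CPM. The 51 Ccl21a-led cells had Eltd1 at 50.1 CPM (25.01 to 89.6) and Gpr116 at 209.5 CPM.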
